A study of Mus musculus with 2 samples.

Results

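Chromatin occupancy by the thyroid hormone receptor TRα1 was examined around 10 genes of cytokine signalling through STAT proteins: Ghr, Lifr, Jak2, Stat3, Stat5a, Stat5b, Cish, Socs1, Socs2 and Socs3. The 10 genes were chosen by their function, out of 21938 protein-coding genes, and with the peak list already known, since Stat5a was named by the study and Cish was among the genes with the most peaks. A peak, hereafter TR binding site (TRBS), was counted for a gene when its summit, the position with most fragments, lay within 30 kb of the transcription start site (TSS), and a wider limit of 100 kb was also used. By this rule 12 of the 5107 TRBS in the list lay within 30 kb of at least 1 of the 10 genes, and 24 lay within 100 kb. The number of TRBS at each gene and their distances to the TSS are therefore what the rule used, and they are given as a description.

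Brown adipose tissue was taken from male mice of the C57BL/6J strain at 8 to 12 weeks of age, with the genotype TRa1 GS-tagged. By design the tagged receptor was expressed in brown adipocytes only, so that the TRBS are meant to report on these cells. The sample label names an antibody to immunoprecipitate TRα. Whether vessels, immune cells or stroma of the tissue contributed was not tested. All mice ate food with propylthiouracil, which stops the thyroid gland from making its hormone, for 2 weeks, and then received thyroid hormone during 24 h. Chromatin crosslinked with disuccinimidyl glutarate and formaldehyde gave 1 ChIP library and 1 input library, so there was no replicate and no test. Hypothyroid mice without hormone were not analysed here, and the list holds no expression values.

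Cytokines and hormones such as growth hormone and leptin bind receptors without enzymatic activity of their own, which carry a JAK kinase on their inner side. The kinase phosphorylates STAT proteins, which pair, enter the nucleus and bind DNA elements of the form TTC, any 3 bases, GAA. Among the first genes that STATs switch on are Cish and the Socs genes, whose proteins block the receptor or the kinase and so close a negative feedback loop. Growth hormone acts mainly through STAT5, and leptin, which fat cells secrete, acts mainly through STAT3.

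A TRBS within 30 kb was found for 6 of the 10 genes, namely Stat5a, Stat5b, Cish, Socs1, Socs2 and Socs3, beside 16.7% of all protein-coding genes. More than 1 such TRBS was found for 3 of them, Cish (6), Stat5a (3) and Stat5b (2), beside 4.55% of all protein-coding genes. Within 100 kb, 8 of the 10 had a TRBS, beside 38.3% of all genes, and the exceptions were Jak2 and Ghr. Those without a TRBS within 30 kb were the receptors Ghr and Lifr, the kinase Jak2 and the transcription factor Stat3. These counts describe genes that were picked with the list in view, and Stat5a and Stat5b lie side by side and share TRBS.

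**Figure D1:**
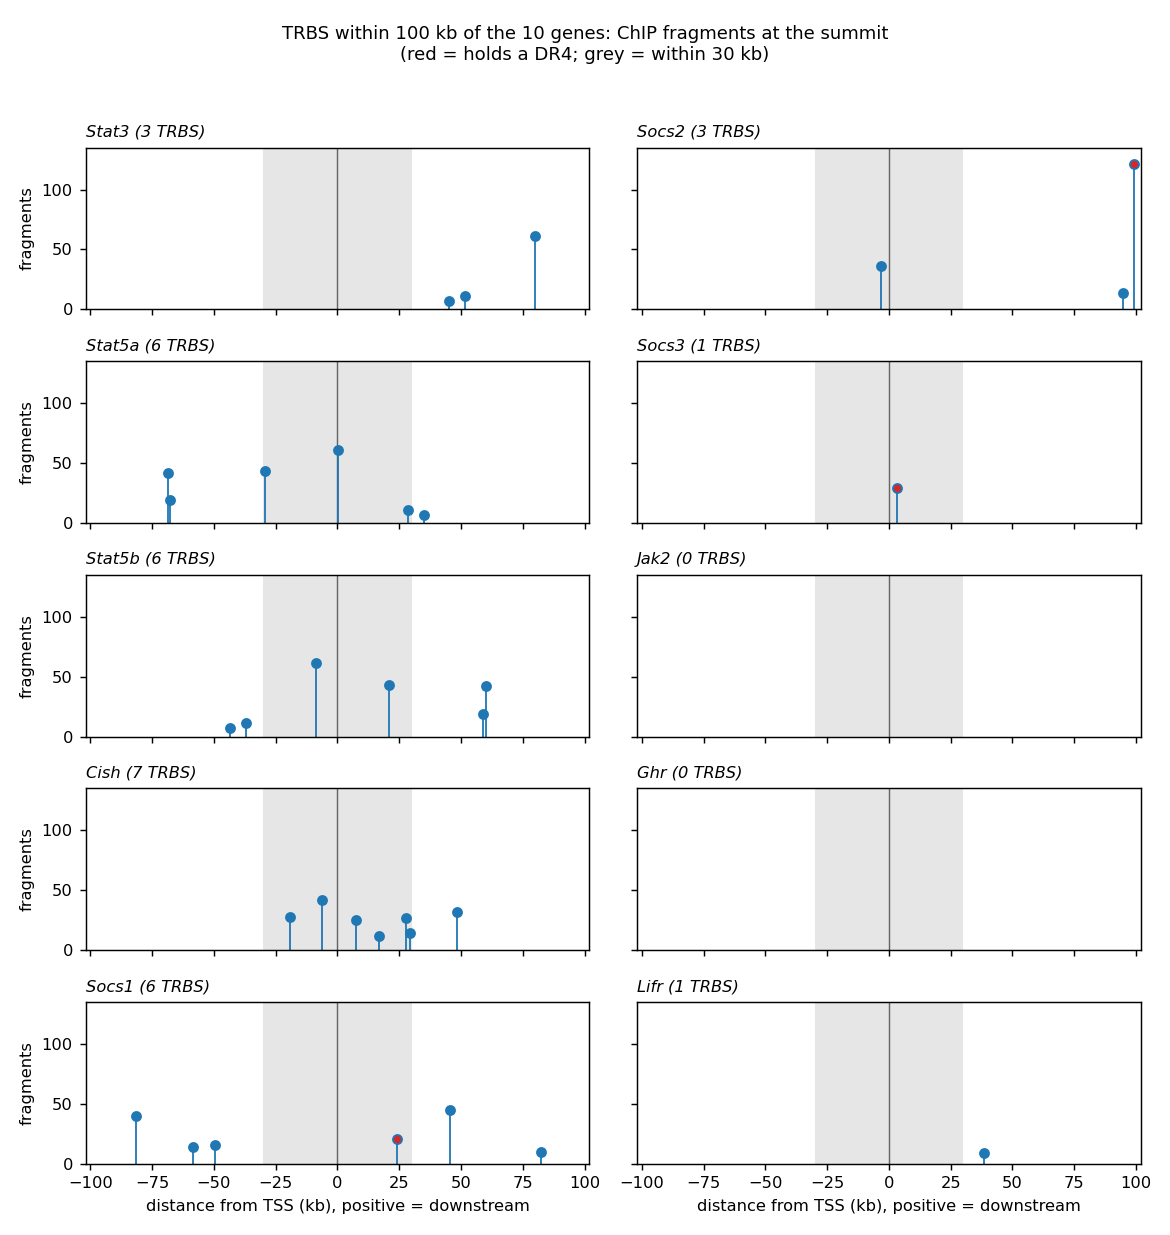
TRBS around each of the 10 genes. The horizontal axis is the distance of the summit from the TSS in kb (positive downstream), the vertical axis is the number of ChIP fragments at the summit, grey marks 30 kb on each side, and red points hold a DR4 element. Cish has 6 TRBS within 30 kb, Jak2 and Ghr have no TRBS within 100 kb, and the 3 TRBS with a DR4 are near Socs1, Socs2 and Socs3.

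The sequence that TR is best known to bind is the DR4 element, AGGTCA followed by any 4 bases and a further AGGTCA. It was searched on both strands of each TRBS with at most 2 mismatches in the 12 half-site bases. The 3 elements found in the 24 TRBS were all the DR4 elements within 100 kb of these genes that lay inside a TRBS. Whether the elements themselves were bound was not tested. They are shown with the AGGTCA-like parts in capitals, 5′ to 3′ (GRCm38). The first, downstream of Socs1, is on the minus strand of chr16:10761397-10761412 and is a perfect match. The element far downstream of Socs2, at chr10:95317948-95317963, and the element in Socs3, at chr11:117966972-117966987, have 2 mismatches each.
Socs1: AGGTCAgatgAGGTCA
Socs2: GGGTCActcaAGGCCA
Socs3: AGCTCTcttcAGGTCA

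The whole setting of the perfect element is shown in the 300 bases around the summit of the Socs1 TRBS, chr16:10761302-10761601, plus strand, with the summit at base 150. The element reads in reverse on this strand, and its half-sites are in capitals.
Socs1 TRBS: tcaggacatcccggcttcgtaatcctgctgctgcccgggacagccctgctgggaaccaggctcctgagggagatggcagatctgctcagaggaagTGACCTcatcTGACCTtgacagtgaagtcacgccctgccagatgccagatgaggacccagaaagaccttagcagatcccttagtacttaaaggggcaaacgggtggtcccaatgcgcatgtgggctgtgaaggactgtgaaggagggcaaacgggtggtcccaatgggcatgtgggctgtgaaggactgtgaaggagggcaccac

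The TRBS within 30 kb of Socs2 holds neither a DR4 nor a single AGGTCA or GGGTCA, and is the strongest of 5 such TRBS among the 24, of which 2 others lie within 30 kb of Cish. It is shown for this reason, as the 300 bases of chr10:95420369-95420668, plus strand, with the summit at base 150 and no capitals.
Socs2 TRBS: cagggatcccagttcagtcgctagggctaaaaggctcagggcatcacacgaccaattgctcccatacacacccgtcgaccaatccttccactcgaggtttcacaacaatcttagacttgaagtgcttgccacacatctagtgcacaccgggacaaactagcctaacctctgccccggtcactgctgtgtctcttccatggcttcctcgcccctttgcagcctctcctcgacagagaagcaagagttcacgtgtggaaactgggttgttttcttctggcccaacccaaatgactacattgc

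Occupancy is given below as the number of ChIP fragments at the summit, with an exact 95% Poisson interval that covers counting error only, and as the fold over input, a ratio that the authors computed. The 12 TRBS within 30 kb had a median of 27.5 fragments, from 11 to 61, and folds between 6.27 and 30.8. The 24 TRBS within 100 kb had a median of 26 fragments, from 7 to 121. For comparison, the 5090 TRBS of the list whose fragments could be resolved had a median of 17, with quartiles at 11 and 27. Of the 12 TRBS, 9 were at or above this median and 6 were above the upper quartile. Of the 24 TRBS, 15 were at or above the median, as were 6 of the 12 between 30 and 100 kb. For 10 of the 24, those with 7 to 19 fragments, the interval overlapped that of the weakest TRBS of the list, which had 5 fragments (1.62 to 11.7), as it did for 58.3% of the TRBS in the list. Input background at the 24 summits was between 0.430 and 2.44 fragments on the ChIP scale, against a list median of 0.672.

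**Figure D2:**
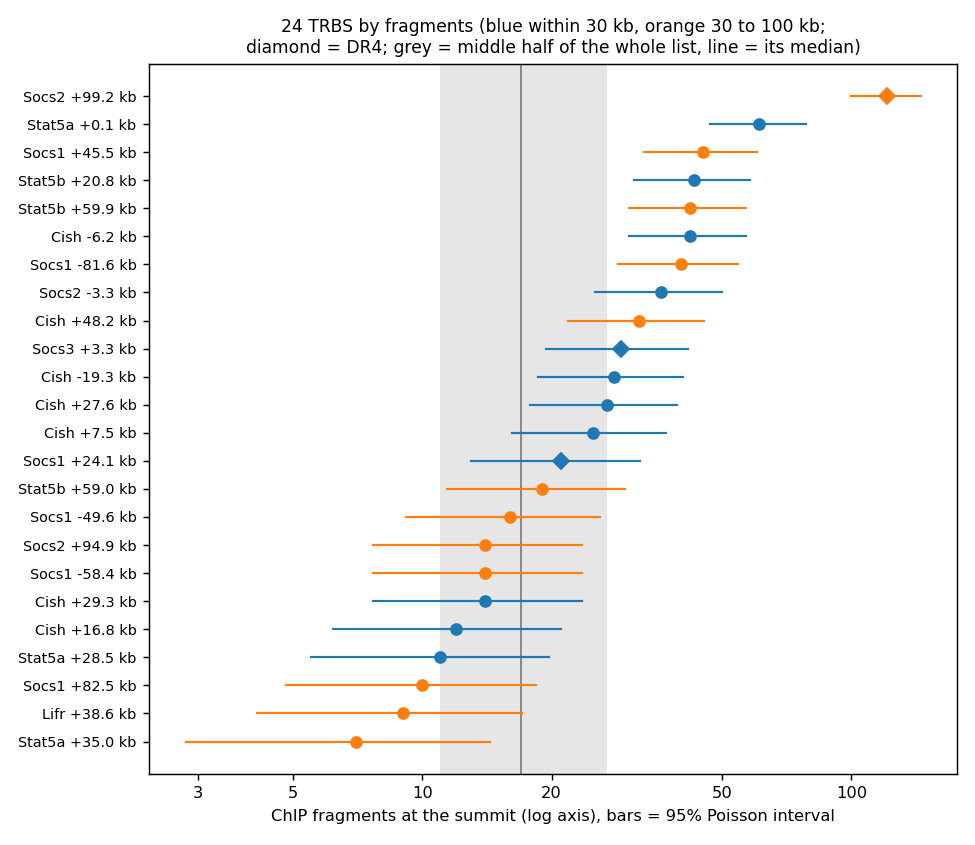
Fragments at the 24 TRBS, each labelled by the gene with the closest TSS among the 10 and the distance in kb, on a log axis with 95% Poisson intervals. Blue TRBS lie within 30 kb and orange ones farther out, diamonds hold a DR4, grey spans the list's quartiles of 11 and 27 and the line is its median of 17; the 121 fragments far downstream of Socs2 and the 61 at the Stat5a promoter stand highest.

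The receptors Ghr and Lifr were examined first. Ghr (chr15:3317760-3583492, minus strand), which encodes the growth hormone receptor, had no TRBS within 100 kb of its TSS. The nearest TRBS was 116433 bp upstream, with 6 fragments and a fold of 4.71. The gene is 265733 bp long, however, and 2 intronic TRBS lay in its distal part, beyond the limit. The TRBS at chr15:3437411-3437823, 145902 bp downstream of the TSS, had 30 fragments (20.2 to 42.8) and a fold of 17.7. It was 34054 bp from the start of another protein-coding Ghr transcript. The TRBS at chr15:3332074-3332576, 251203 bp downstream, had 24 fragments (15.4 to 35.7) and a fold of 16.6. Both were above the list median of 17 fragments, although for the weaker of them the interval includes it, and neither held a DR4.

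Lifr (chr15:7090614-7197489, plus strand), which encodes the receptor of leukemia inhibitory factor, had no TRBS within 30 kb of its TSS and 1 within 100 kb. This TRBS, chr15:7128994-7129350, lay in an intron 38580 bp downstream, with 9 fragments (4.12 to 17.1) and a fold of 5.43, the lowest of the 24. It was 365 bp from the start of another protein-coding Lifr transcript and overlapped a RefSeq promoter of that start. Lifr was also the gene with the most DR4 elements of at most 1 mismatch, 7 in all. Of the 22 elements within 100 kb of its TSS, 4 were perfect, at 78528, 45002, 44992 and 17107 bp upstream, and none of these lay in a TRBS. They are shown to be set beside the element inside the Socs1 TRBS, which they equal in all 12 half-site bases. The second and the third overlap.
Lifr -78528 bp: AGGTCAatagAGGTCA
Lifr -45002 bp: AGGTCAcctcAGGTCA
Lifr -44992 bp: AGGTCAggccAGGTCA
Lifr -17107 bp: AGGTCAggtcAGGTCA

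Jak2 (chr19:29251828-29313080, plus strand), the kinase carried by the growth hormone and leptin receptors, had no TRBS within 100 kb of its TSS nor in its gene body. The nearest was 137333 bp upstream, closest to Rcl1, with 7 fragments and a fold of 5.01. Of the 22 DR4 elements within 100 kb of Jak2, 1 had a single mismatch, and none lay in a TRBS. A TRBS too weak to be called in this ChIP library would not have been detected.

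The 3 STAT genes lie together on chromosome 11. The TSS of Stat5a and of Stat5b, which encode near-identical transcription factors of growth hormone and prolactin signalling, are 8627 bp apart, and the TSS of Stat3 is 80189 bp from that of Stat5a. As a result their TRBS are shared, and 6 TRBS lay within 100 kb of both Stat5 genes. The strongest, chr11:100859045-100859761, was at the promoter of Stat5a (chr11:100859351-100885169, plus strand), 85 bp downstream of its TSS and 8712 bp upstream of that of Stat5b. It had 61 fragments (46.7 to 78.4) and a fold of 28.0. Only 4.93% of TRBS in the list had as many fragments.

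The Stat5a promoter TRBS held no DR4 but 4 half-sites, AGGTCA or GGGTCA. A pair of these pointed away from each other across 4 bp, an everted repeat, at chr11:100859600-100859615, 172 bp from the summit. This arrangement, searched as GGGTCA or AGGTCA without mismatches on both sides, was present in 4 of the 5107 TRBS (0.0783%) and in 5 of 9882 flanking windows (0.0506%). The pair and the remaining half-sites, at 208 and 300 bp from the summit, are shown with their neighbouring bases. They are all the exact half-sites of this TRBS, which held no DR4 even with at most 3 mismatches. Whether the receptor binds them was not tested.
Stat5a everted pair: TGACCCttctAGGTCA
Stat5a half-site at 208 bp: agtggtttgtGGGTCAcagtctgatg
Stat5a half-site at 300 bp: ttacctgcaaAGGTCAgaagggggtg

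Within Stat5b (chr11:100780731-100850724, minus strand), an intronic TRBS at chr11:100829665-100830226 lay 20823 bp downstream of the Stat5b TSS and 29450 bp upstream of that of Stat5a. It had 43 fragments (31.1 to 57.9) and, with a background at the genome-wide level of 0.430, the highest fold of the 12, 30.8. Its half-site GGGTCA was 6 bp from the summit, and it was the only TRBS of the 24 with the EBF motif, TCCC, any 2 bases, GGGA. This motif is bound by early B cell factors, which are known in fat cell differentiation, and was present in 4.54% of all TRBS and 1.29% of flanking windows. The 26 bases around the half-site are shown because it lies at the summit.
Stat5b intron: aaacaagtcgGGGTCAggcagggaca

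The third TRBS within 30 kb of Stat5a, chr11:100887786-100888211, lay 28544 bp downstream of its TSS, in the 3′ UTR of the neighbouring Stat3. It was the weakest of the 12, with 11 fragments (5.49 to 19.7) and a fold of 6.27, although a GGGTCA was at its summit. The remaining TRBS of the locus were farther out. In the distal part of Stat5b, 59943 bp downstream of its TSS, a coding exon held a TRBS with 42 fragments (30.3 to 56.8) and a fold of 22.5, the strongest of this locus between 30 and 100 kb. A weaker TRBS with 19 fragments (11.4 to 29.7) followed 963 bp away, over the highest background of the 24.

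Stat3 (chr11:100885098-100939540, minus strand), the transcription factor of leptin and interleukin 6 signalling, had no TRBS within 30 kb of its TSS. Within 100 kb it had 3, all downstream. The Stat5a promoter TRBS was the strongest of these, 80104 bp away. The others were inside Stat3, in its 3′ UTR (above) and in an intron, 45175 bp from its TSS, where the TRBS had 7 fragments (2.81 to 14.4), the fewest of the 24. A start of a Stat3 transcript annotated as retained intron was 68 bp from this TRBS. The TRBS at the Stat5a promoter and in the Stat5b intron thus had 61 and 43 fragments, whereas those in the body of Stat3 had 11 and 7.

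Cish (chr9:107296026-107302784, plus strand), the inhibitor induced by STAT5, had 6 TRBS within 30 kb, a number reached by 26 protein-coding genes (0.119%). They had 148 fragments in total, against 115 for Stat5a, 104 for Stat5b, 36 for Socs2, 29 for Socs3 and 21 for Socs1. None was in the Cish gene or at its promoter, and none held a DR4. The TRBS closest to the TSS, chr9:107289471-107290058, was also the strongest, with 42 fragments (30.3 to 56.8) and a fold of 26.7. It lay 6196 bp upstream of Cish, at the promoter of Mapkapk3, a kinase of the p38 stress pathway, whose TSS was 47 bp away. It held an AGGTCA 2 bp from the summit.
Mapkapk3 promoter: gggccccgctAGGTCAaccttaaagg

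A further upstream TRBS was in an intron of Mapkapk3. This TRBS, chr9:107276391-107276941, 19301 bp upstream of the Cish TSS, had 28 fragments (18.6 to 40.5) and a fold of 19.6. It held 2 AGGTCA half-sites and, 59 bp from the summit, the STAT-type element TTCCCGGAA at chr9:107276780-107276788. Downstream of Cish, the TRBS at chr9:107303370-107303820, 7523 bp from the TSS, had 25 fragments (16.2 to 36.9) and a fold of 15.5. It held the STAT-type element TTCTGAGAA, 170 bp from its summit, and 2 GGGTCA half-sites. These were the only TTCNNNGAA elements in the 24 TRBS (8.33%), and the share of all TRBS with this element was 14.3%, against 12.6% of flanking windows. The 300 bases around the summit of the TRBS in Mapkapk3, chr9:107276576-107276875 on the plus strand, are shown because a STAT-type element and an AGGTCA, both in capitals, occur together; this window was chosen after its content was seen.
Cish upstream TRBS: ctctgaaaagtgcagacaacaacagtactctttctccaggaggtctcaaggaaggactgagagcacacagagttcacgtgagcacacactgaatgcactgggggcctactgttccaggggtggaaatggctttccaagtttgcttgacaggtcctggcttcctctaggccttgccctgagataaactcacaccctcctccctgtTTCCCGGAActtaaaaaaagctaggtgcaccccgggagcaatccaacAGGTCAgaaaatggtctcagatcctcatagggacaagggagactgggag

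The other TRBS downstream of Cish within 30 kb were intergenic. The TRBS at chr9:107312613-107312952, 16808 bp from the TSS, was the weakest at Cish, with 12 fragments (6.20 to 21) and a fold of 9.09. The remaining pair was closer to the TSS of Hemk1, which encodes a methyltransferase of a translation release factor. The TRBS at chr9:107323446-107323853, 27598 bp downstream of Cish, had 27 fragments (17.8 to 39.3) and a fold of 14.6. The TRBS at chr9:107325280-107325558, 29349 bp downstream, had 14 fragments (7.65 to 23.5) and a fold of 6.76, with an AGGTCA 4 bp from its summit. A seventh TRBS, 48248 bp downstream in an intron of 6430571L13Rik, had 32 fragments (21.9 to 45.2). The TRBS around Cish thus ranged from 12 to 42 fragments, and the intervals of the 5 strongest overlapped.

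**Figure D3:**
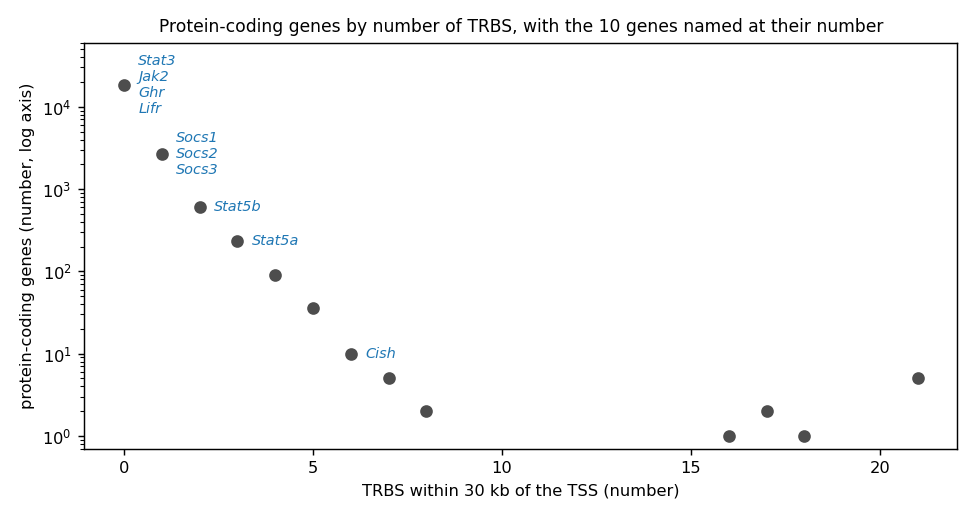
Number of protein-coding genes (vertical, log axis) by the number of TRBS within 30 kb of their TSS (horizontal). The 10 genes are named at their number: 4 of them have 0 and Cish has 6, which 26 genes reach or exceed.

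Socs1 (chr16:10782240-10785536, minus strand), the inhibitor of interferon signalling, had 1 TRBS within 30 kb. This TRBS, chr16:10761253-10761621, was intergenic, 24085 bp downstream of the TSS, and had 21 fragments (13 to 32.1) and a fold of 8.72. Its perfect DR4, printed above, was 46 bp from the summit, and 44 TRBS of the list (0.862%) held such an element. A further 2 elements with 1 mismatch lay closer to Socs1, 19848 and 5195 bp downstream of its TSS, but not in a TRBS. Between 30 and 100 kb Socs1 had 5 TRBS, from 10 to 45 fragments, in introns of Clec16a and in the promoter and introns of Rmi2. The strongest, 45503 bp downstream in Clec16a, had 45 fragments (32.8 to 60.2) and a fold of 32.2, and held no DR4. It had more fragments than the TRBS with the perfect element, and the intervals did not overlap.

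Socs2 (chr10:95385362-95417180, minus strand), the inhibitor that restrains growth hormone signalling, had 1 TRBS within 30 kb, 3338 bp upstream of its TSS (chr10:95420252-95420800). It had 36 fragments (25.2 to 49.8) and a fold of 21.1, and is the TRBS without a half-site printed above. It lay 3143 bp from the start of a long noncoding RNA, 5730420D15Rik. Near the other end of the 100 kb window, in introns of Cradd, an adaptor of apoptosis signalling, were 2 more. The TRBS at 99156 bp downstream, just inside the limit, had 121 fragments (100 to 145) and a fold of 69.5. It was the strongest of the 24, and 0.979% of the list had as many fragments. It held the DR4 with 2 mismatches, 68 bp from the summit, but was much closer to the TSS of Cradd, at 6109 bp.

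Socs3 (chr11:117966079-117970047, minus strand), the inhibitor of leptin and interleukin 6 signalling, had 1 TRBS within 100 kb. This TRBS, chr11:117966538-117967036, was in its own 3′ UTR, 3318 bp downstream of the TSS, with 29 fragments (19.4 to 41.6) and a fold of 15.7. Its DR4 was 250 bp from the summit, at the edge of the TRBS, and a search limited to 100 bp around the summit missed the element. The AGGTCA of this DR4 was its only half-site. Socs3, Socs2 and Socs1 thus had TRBS of 21 to 36 fragments within 30 kb, with overlapping intervals.

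When each TRBS was measured to the closest of the 10 TSS, those just inside 30 kb were 29349 bp from Cish (14 fragments) and 28544 bp from Stat5a (11 fragments), and the next outside was 35014 bp from Stat5a (7 fragments). Just inside 100 kb was the TRBS 99156 bp from Socs2 (121 fragments), and the next outside were 109038 bp from Lifr (18 fragments) and 109221 bp from Stat5b (5 fragments).

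The DR4 was present in 3 of the 24 TRBS (12.5%, 95% Wilson interval 4.34 to 31.0%). It was in 32.0% of all TRBS in the list, just above that interval, and in 5.43% of flanking windows of the same width, inside it. Such an interval treats the TRBS as independent. Some lie close together and the genes were picked with the list in view, so it serves as a description only. With at least 26 fragments, the median of the 24, a DR4 was in 2 of the 12 that remained, beside 41.0% of such TRBS in the list. A single half-site, AGGTCA or GGGTCA, was present in 19 of the 24 (79.2%), beside 72.5% of all TRBS. A half-site is short enough to occur often by composition, and AGGTCA alone was in 27.6% of flanking windows. The C/EBP-type element TTGCGCAA, with at most 1 mismatch, was in 0 of the 24 TRBS (Wilson interval 0 to 13.8%), beside 12.0% of all TRBS, a share within that interval, and 5.63% of flanking windows. In the genome sequence, 214 distinct DR4 elements lay within 100 kb of the 10 genes, from 19 at Ghr to 36 at Stat5b. Only 3 (1.40%) were in a TRBS, beside 0.711% of all 290078 elements of the genome. Of the 5 perfect elements, that of Socs1 was in a TRBS and the 4 of Lifr were not, whereas 62 of the 1119 perfect elements of the genome (5.54%) were.

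**Figure D4:**
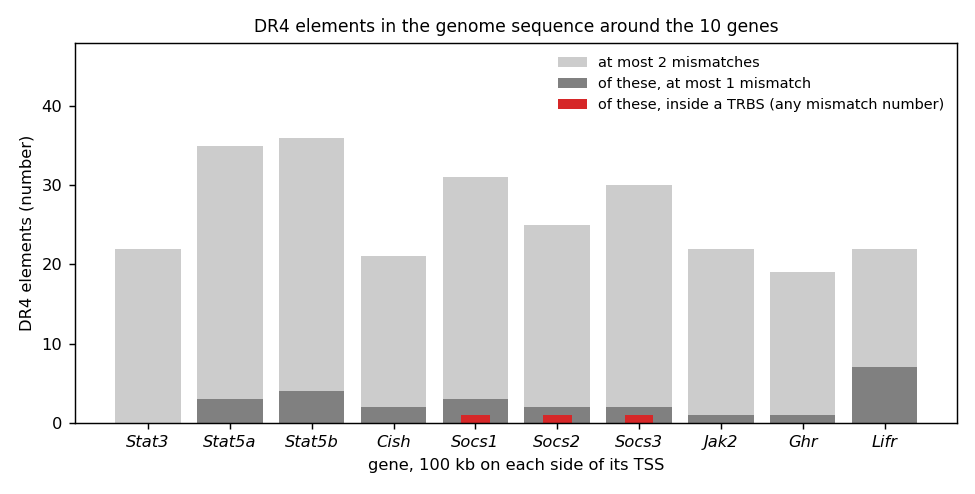
DR4 elements within 100 kb of each TSS in the genome sequence (light bars, at most 2 mismatches), those with at most 1 mismatch (dark bars) and those inside a TRBS (red). Each gene has between 19 and 36 elements, and only Socs1, Socs2 and Socs3 have 1 in a TRBS; Stat3, Stat5a and Stat5b share part of theirs.

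Promoter sequences from RefSeq (GRCm38.p6), 250 bases before to 50 after each start, were matched for 9 of the 10 genes (13 promoters). None held a DR4, which was in 3.02% of all 32851 promoters. A half-site was in 5 of the 13, beside 27.5% of all promoters. The STAT-type element TTCNNNGAA was in the promoter of Cish, with 2 copies, and in that of Socs3, with 1, beside 8.30% of all promoters. TRBS overlapped only the promoter of Stat5a and that of the downstream start of Lifr. The promoters with STAT-type elements were thus outside the TRBS.

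A list of 55 other genes of the same pathway was examined with the same rule. A TRBS within 30 kb was found for 16, beside 16.7% of all protein-coding genes. More than 1 was found for 6, beside 4.55% of all genes, and a TRBS within 100 kb for 35, beside 38.3%. The 16 genes had 21 distinct TRBS, as Il11ra1 and Cntfr share theirs. By role, these were 1 of 4 other STATs (Stat6), 0 of 3 other kinases, 0 of 4 other members of the SOCS family, 3 of 8 phosphatases and PIAS proteins, 8 of 20 receptors, 1 of 9 ligands and 3 of 7 STAT target genes. The 8 receptors were Ifnar1, Ifnar2 and Ifngr2 for interferons, Il6ra, Il10rb and Il11ra1 for interleukins, Cntfr and Epor, with 9 to 25 fragments at their strongest TRBS. The other 12 receptors, among them Ifngr1, Il6st, Il4ra, Lepr and Prlr, had none within 30 kb, like Ghr and Lifr.

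The 6 genes of this list with the strongest TRBS were led by Bcl6, a transcriptional repressor that opposes STAT5. Its intronic TRBS 9256 bp downstream of the TSS had 120 fragments (99.5 to 143), a fold of 38.6 and a DR4. The TSS of Gm37419 was slightly closer to this TRBS, at 8886 bp. Lep, which encodes leptin, had 86 fragments (68.8 to 106) and a fold of 60.8 at its promoter, 269 bp upstream of the TSS and without a DR4. Ccnd1, which encodes cyclin D1, had 70 fragments (54.6 to 88.4) and 2 DR4 elements at a TRBS 12047 bp downstream of its TSS, in an intron of the neighbouring gene LTO1. Pias4 and Pias3, which encode inhibitors of STATs that act as SUMO ligases, had 68 (52.8 to 86.2) and 30 fragments (20.2 to 42.8) at 7237 and 26168 bp upstream of their TSS. Both TRBS were closer to another gene, at 1471 bp from the TSS of Eef2 and at the promoter of Ankrd35. Mcl1, a survival factor, had 26 fragments (17.0 to 38.1) and a DR4 at a TRBS 18162 bp downstream of its TSS, in a coding exon of Adamtsl4. Bcl6, Lep, Ccnd1 and Pias4 thus had more fragments than any TRBS within 30 kb of the 10 genes, of which the Stat5a promoter had the most with 61 (46.7 to 78.4), but only the interval of Bcl6 did not overlap that of Stat5a.

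**Figure D5:**
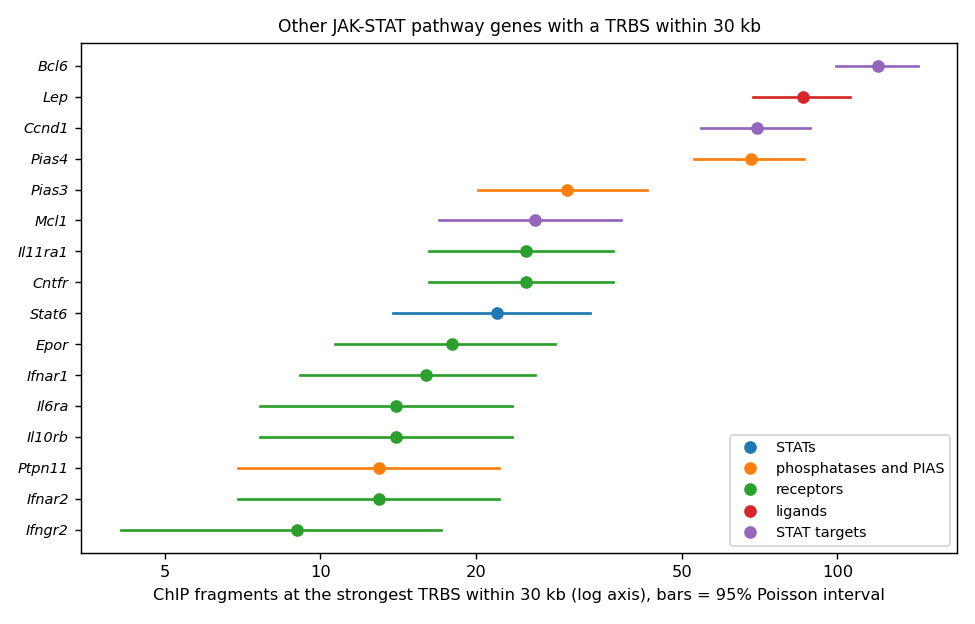
Fragments at the strongest TRBS within 30 kb of the 16 other pathway genes that had one, on a log axis with 95% Poisson intervals, coloured by role. Bcl6 stands highest with 120 fragments, followed by Lep with 86, and the receptors lie between 9 and 25.

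Genes that mark cell types were checked in the same way. A TRBS within 30 kb was found for 7 of 10 genes listed for brown adipocytes, beside 16.7% of all protein-coding genes. They were Ucp1, Cidea, Ppargc1a, Pparg, Adipoq, Fabp4 and Plin1, and those without were Dio2, Elovl3 and Prdm16. With a score of at least 60, Adipoq had none. For genes of endothelial, immune, fibroblast and muscle cells the count was 1 of 16 (Lyz2). Since the list holds no expression values, this describes occupancy alone.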

How the data were processed

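ChIP-seq for GS-tagged TRα1 in brown adipose tissue gave 1 ChIP and 1 input library. The submitters' processing notes name Bowtie2 2.3.2.2 and MACS2 2.1.1.20160309.6 (mm10). The deposited score is the −log10 q-value times 10. The deposited fold is a ratio, ChIP pileup over local input, with a pseudocount of 1. Deposited p and q are −log10 values of a Poisson test of the same pileup. These are the authors' own comparison of ChIP with input, used only to describe and rank peaks. The study's score limit of 60 was not applied to the list, in which 897 peaks were below it and the lowest was 13.

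Fold and p-value together gave whole ChIP fragments at the summit for 5090 of 5107 peaks (99.7%, tolerance 0.0005 on the −log10 p). The read totals were not used here. Distances ran from the summit to the 5′ end of the gene record (GENCODE M21, GRCm38), with limits of 30 and 100 kb. Promoters spanned 1000 bp upstream to 100 bp downstream. Flanking windows of equal width lay 2 kb from each edge. Searches were tested on simulated data. Python 3.11.15, SciPy 1.17.1 and pysam 0.24.0 were used. Intervals are exact Poisson or Wilson, at 95%, and cover counting error only, as fragments need not be independent molecules.

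The genes and lists were chosen with earlier results of these data known. The text names the 10 genes, each TRBS within 30 kb in full, the strongest from 30 to 100 kb with some weaker ones chosen after their values were seen, the genes nearest to them, and the 6 other pathway genes with the strongest TRBS. Alternatives changed the score limit, distance limit, TSS, merging of peaks and DR4 search.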

Additional observations from a re-analysis of the deposited data

How the results depend on the processing

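Of 25 recomputed counts, 22 stayed within 1.5 times the reported value and 3 moved beyond it. With a limit of 10 kb, the number of TRBS fell from 12 to 5, and the genes with a TRBS went from 6 to 5, beside 8.09% of all protein-coding genes, as Socs1 was lost. The DR4 was in 1 of the 24 TRBS with at most 1 mismatch, beside 7.23% of all TRBS, and in 18 with at most 3 mismatches, a limit at which 72.5% of all TRBS also held it. With the TSS of any transcript, 8 genes had a TRBS within 30 kb, the additions being Stat3 and Lifr, beside 19.6% of all protein-coding genes. With a score of at least 60, 22 of the 24 TRBS remained, and with at least 100, 18. Those lost at 60 lay in introns of Lifr and Stat3, with a score of 44 each, and Lifr then had no TRBS within 100 kb. No paired analysis was possible because there was 1 ChIP library and 1 input library. With 1 ChIP library, 10 of the 24 TRBS (7 to 19 fragments) have intervals that overlap that of the weakest of the list, beside 58.3% of all TRBS, and occupancy without a called TRBS would not be seen.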
